A study of Mus musculus with 32 samples.

Results

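The genes described here are 40 named members of the type I interferon response, taken by name from the expression table of melanoma-specific CD8 T cells. A name counted as a member when its row lay above 0 in at least 1 library, which held for 40 of 40. They stand among 42409 genes above 0 in any library and 19738 genes tested, and all 40 passed the filter for testing (at least 1 TPM in 4 or more libraries). TPM is the level of a gene as a share of its library, corrected for gene length.

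Type I interferons are secreted proteins that warn cells of viral infection. They bind a receptor made of Ifnar1 and Ifnar2, whose kinases Jak1 and Tyk2 activate a complex that holds Stat2 and Irf9. That complex binds interferon-stimulated response elements in promoters and switches on genes that sense viral nucleic acid, block viral replication or limit the signal. In T cells the same genes are read as a record of interferon contact, and interferon acts on priming, expansion and survival.

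RNA was sequenced in bulk from CD8+ Thy1.1+ Pmel T cells, whose transgenic receptor recognises a melanocyte antigen, in C57BL/6 mice aged 16 weeks. There were 32 libraries in 8 groups of 4. Every group, the naive one too, carries the same disease label, melanoma-associated vitiligo. Naive cells came from spleen. The day 12 group was sorted from the node that drains the tumor. Lymph node memory cells and cells from skin, lung and liver were taken 45 days after tumor surgery. Cells from spleen and from tumor complete the series. Neither of these, nor the naive cells, has a time in its labels. Skin, lung and liver were digested with enzymes and the lymph nodes dissociated mechanically. The labels do not say whether animals were pooled or whether each sample is its own animal. The p-values therefore rest on the spread among 4 samples of a group, which may be technical. In bulk RNA, fewer cells of a type and less RNA per cell cannot be told apart.

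Libraries differed in how much T cell RNA they held. All 16 genes of a T cell identity list were found in every group, and their sum ranged from 35797 to 41318 TPM in naive cells and from 3008 to 27409 TPM in liver. In 6 libraries it lay under 0.5 of the median over libraries. These were liver replicates 2, 3 and 4 and the replicates numbered 4 of skin, spleen and tumor. Liver replicate 2 had 10732 genes above 0 and 23.5% of its TPM in mitochondrial genes, and 28 of the 40 members above 0, against 36 to 40 in the other libraries. Read counts are not part of these values, so depth is unknown. Changes are differences of mean log2(TPM + 1) ± the standard error (SE) from limma over 4 libraries per group, and a gene was called at an adjusted p under 0.05. On this scale the change of a low gene is understated. Where groups are said not to overlap, the share of all genes tested that did the same was not counted. Such statements describe single genes and have no background.

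The promoter stretches of 9 members are shown first, because letters of the interferon-stimulated response element can be read in them. RefSeq promoter windows on GRCm38.p6, from 250 bases before to 50 bases after the gene start, were at hand for 30 of the 40 members. The letters GAAANNGAAA, searched on both strands and with overlapping matches allowed, occurred in 17 of these 30 members (56.7%) and in 1079 of 27025 genes (3.99%). Capitals mark the matches, which begin with TTTC where the element lies on the other strand. Each stretch has 12 bases on either side, is written 5′ to 3′ on the strand of its gene, and is followed here by its position. Isg15 lies at chr4:156200863-156200908 (minus strand), Ifit1 at chr19:34640773-34640825 (plus), Ifit3 at chr19:34583361-34583428 (plus), Ifit3b at chr19:34607757-34607824 (plus) and Ifit1bl1 at chr19:34602051-34602084 (minus). Oas1a lies at chr5:120907518-120907557 (minus), Oas1g at chr5:120887604-120887643 (minus), Apol9a at chr15:77411112-77411151 (minus) and Apol9b at chr15:77729023-77729062 (plus).
Isg15: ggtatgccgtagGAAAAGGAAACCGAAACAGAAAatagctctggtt
Ifit1: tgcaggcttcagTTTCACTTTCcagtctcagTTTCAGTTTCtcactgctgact
Ifit3: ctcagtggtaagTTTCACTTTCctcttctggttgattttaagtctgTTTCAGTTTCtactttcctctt
Ifit3b: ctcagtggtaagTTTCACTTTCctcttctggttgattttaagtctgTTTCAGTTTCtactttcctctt
Ifit1bl1: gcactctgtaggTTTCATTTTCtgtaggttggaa
Oas1a: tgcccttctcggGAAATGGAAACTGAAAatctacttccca
Oas1g: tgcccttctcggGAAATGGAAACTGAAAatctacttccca
Apol9a: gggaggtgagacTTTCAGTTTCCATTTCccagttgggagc
Apol9b: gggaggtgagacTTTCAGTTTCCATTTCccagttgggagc
Isg15 holds 3 overlapping matches in a row, and Ifit1 and Ifit3 hold 2 that are set apart. The printed stretches of Ifit3 and Ifit3b are the same letters, as are those of Oas1a and Oas1g and those of Apol9a and Apol9b. The letters TTCNNNGAA, which the interferon-gamma element uses, occurred in 5 of the 30 members (16.7%) and in 9.55% of genes. A match is a description of letters and not a measured binding site.

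Close copies also bear on the counting. Of the 50-base windows in the transcripts of Oas1a, 57.6% also occur in Oas1g. For Ifit3 the share found in Ifit3b is 51.2%, and for Apol9b the share found in Apol9a is 52.3%. Reads of these pairs may have been split between them in a way that no label states, so their single values are uncertain. Dtx3l and Parp9 overlap on opposite strands of chromosome 16, from 35938470 to 35939151, and no label says whether reads were counted by strand. Mx2 is annotated as a polymorphic pseudogene. All 5 IFIT members lie together on chromosome 19, from 34550694 to 34650009. The 6 OAS members lie on chromosome 5 at separate places, with Oasl1 and Oasl2 apart from the other 4.

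The members as a group were highest in naive cells, tumor and lymph node memory cells and lowest on day 12 and in skin. The median log2(TPM + 1) of the 40 members was 5.14 ± 0.09 in naive cells (mean ± SD over 4 libraries), 5.06 ± 0.44 in tumor and 4.82 ± 0.37 in lymph node memory cells. It was 4.38 ± 0.17 in lung, 4.26 ± 0.60 in spleen, 3.92 ± 0.20 in liver, 3.25 ± 1.03 in skin and 3.23 ± 0.09 on day 12. The ranges of neighbours in this order overlapped in every case, and between liver and skin only through skin replicate 3. Naive cells held the highest group mean for 18 members, tumor for 12 and lymph node memory for 7, while day 12 held the lowest for 18 and skin for 14. In limma's moderated F test 35 of 40 members differed between any groups, against 46.9% of all genes tested. The other 5 were Herc6, Oas1g, Mx2, Cmpk2 and Bst2, with adjusted p from 0.0513 to 0.108.

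**Figure D1:**
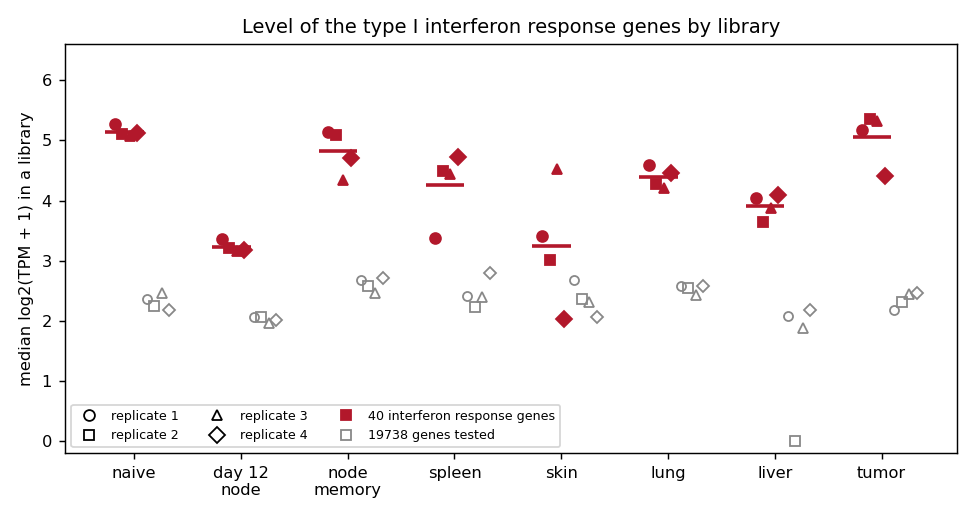
Median log2(TPM + 1) over the 40 interferon response genes (filled red) and over the 19738 genes tested (open grey) in each of 32 libraries, by group. Symbols are replicates and the red line is the mean of 4 libraries. Naive libraries lie between 5.06 and 5.27 and day 12 libraries between 3.16 and 3.37, while skin spreads from 2.04 to 4.52.

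By the median of the members, skin was the most uneven group. Its 4 libraries had member medians of 3.42, 3.01, 4.52 and 2.04, so replicate 3 reached the level of spleen (3.37, 4.49, 4.43 and 4.72) and replicate 4 was the lowest of the 32. Skin replicate 3 also held the most myeloid RNA of the group, 9831 TPM over 22 genes against 787 to 1729 TPM in the other 3. Skin replicate 4 held the least T cell RNA, 5429 TPM against 24820 to 32631 TPM, and the most keratinocyte RNA, 6136 TPM over 11 genes against 445 to 2726 TPM.

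**Figure D2:**
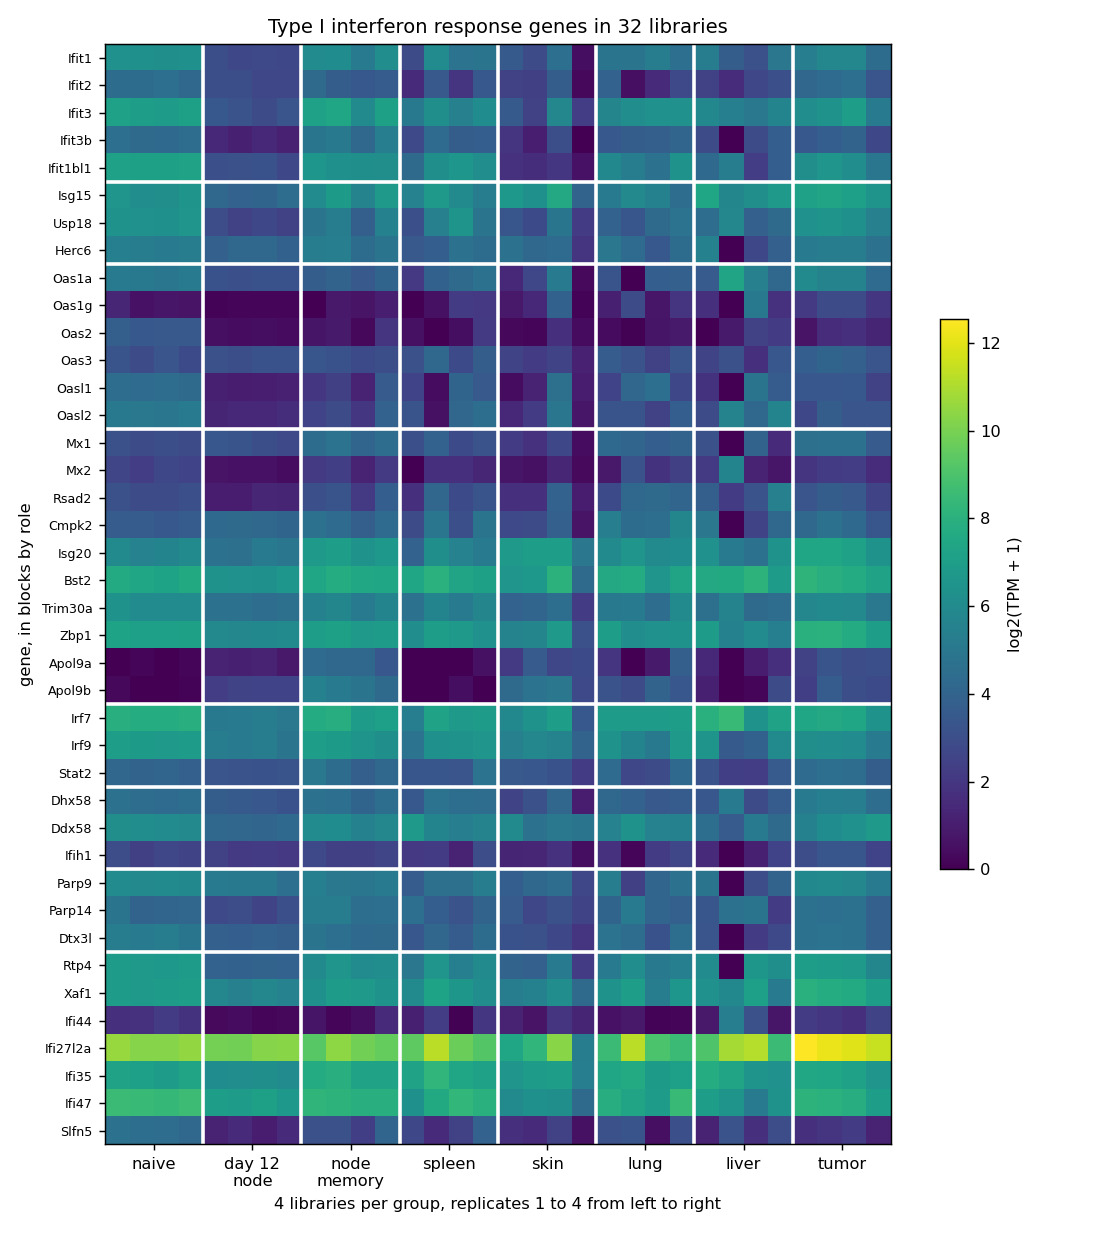
Level of each of the 40 genes, as log2(TPM + 1), in 32 libraries. Rows are blocked by role and columns by group, with replicates 1 to 4 from left to right. Ifi27l2a is the highest gene in every library but skin replicate 4, Apol9a and Apol9b are at or near 0 in naive cells and spleen, and liver replicate 2 shows members at 0 that its neighbours hold.

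The comparison of the day 12 lymph node with naive cells asks how the response genes stand after priming. Naive cells came from spleen, so priming and organ cannot be told apart here. The T cells of the draining node held less RNA of many of the response genes. Of the 40 members 20 fell and 1 rose, against 5.14% and 5.95% of all genes tested, and the median change was -1.51 over the members and -0.19 over all genes. The IFIT genes, whose proteins bind viral RNA, fell most as a block (4 of 5 called, median -3.48), followed by Usp18, Oasl2, Oasl1, Slfn5 and Oas2. These 2 groups had the least spread over all genes (residual SD 0.39 and 0.30, against 0.51 to 1.33 in the others), while the SE pools all 8 groups. With weights per group 37 of 40 members passed, 34 lower and 3 higher.

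Ifit1bl1, a relative of Ifit1, lay at 146, 139.5, 138 and 147 TPM in naive cells and at 7.4, 7.66, 7.94 and 5.51 TPM on day 12. Ifit3 lay at 145, 124, 119 and 138 TPM and at 10.2, 8.31, 6.42 and 8.74 TPM. Neither pair of groups overlapped, and Ifit1bl1 fell by 4.15 ± 0.50 (adjusted p = 4.9e-07) and Ifit3 by 3.83 ± 0.50 (adjusted p = 1.84e-06). Ifit1, which binds RNA whose cap lacks host methylation, went from 80.6, 76.5, 75.1 and 78.6 to 7.14, 5.61, 5.82 and 5.7 TPM and fell by 3.48 ± 0.62 (adjusted p = 0.000152). Ifit3b fell by 3.13 ± 0.57 (adjusted p = 0.000219). Ifit2 changed by -1.58 ± 0.60 (adjusted p = 0.0956) and was not called.

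Isg15, a ubiquitin-like protein that is coupled to others, lay at 92.5, 69.1, 73.5 and 89.9 TPM in naive cells and at 17.3, 14.2, 15.4 and 21.5 TPM on day 12. Usp18, the protease that takes Isg15 off again and also blocks the receptor, lay at 87.5, 81.4, 77 and 93.3 and at 6.93, 4.57, 5.64 and 4.65 TPM. Both were separated without overlap. Isg15 fell by 2.19 ± 0.50 (adjusted p = 0.00271) and Usp18 by 3.75 ± 0.56 (adjusted p = 1.55e-05). Herc6, the ligase that attaches Isg15 in mice, changed by -1.24 ± 0.67 (adjusted p = 0.286).

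The OAS genes make or resemble enzymes that sense double-stranded RNA and switch on an RNase. Oas2 lay at 13, 10.1, 10.5 and 10.4 TPM in naive cells and at 0.42, 0.34, 0.37 and 0.28 TPM on day 12, and fell by 3.15 ± 0.47 (adjusted p = 1.51e-05). Oasl2 lay at 32.9, 31.2, 29.7 and 33.4 and at 1.43, 1.77, 1.77 and 2.08 TPM and fell by 3.57 ± 0.73 (adjusted p = 0.000815). Every day 12 library was below every naive one for both genes. Oasl1 fell by 3.35 ± 0.84 (adjusted p = 0.0073). Oas1a, Oas1g and Oas3 were not called, with changes of -1.94, -0.65 and 0.05.

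Among the factors that carry the signal, Irf7, the factor that amplifies interferon production, lay at 229.8, 217, 214 and 235 TPM in naive cells and at 32.6, 34.2, 39.4 and 31 TPM on day 12. Irf9, the DNA-binding part of the Stat complex, lay at 124, 113, 110.4 and 119.7 and at 37.7, 35.8, 38.8 and 27 TPM. Irf7 fell by 2.68 ± 0.51 (adjusted p = 0.000357) and Irf9 by 1.73 ± 0.52 (adjusted p = 0.0261), without overlap. Stat2, its partner, lay at 16.5, 15, 15.9 and 13.3 and at 9.07, 8.19, 7.95 and 8.61 TPM and changed by -0.77 ± 0.42 (adjusted p = 0.285). Of the cytosolic RNA sensors, Ddx58 (RIG-I) fell by 1.90 ± 0.35 (adjusted p = 0.00028). Dhx58 (LGP2) lay at 25.7, 21.4, 19.6 and 21.8 and at 12.1, 10.7, 9.57 and 8.06 TPM, with a change of -1.06 ± 0.47 (adjusted p = 0.164).

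The effector genes were divided. Rsad2 (viperin), which makes a chain-ending nucleotide, lay at 7.61, 6.61, 6.63 and 7.47 TPM in naive cells and at 0.93, 1.03, 1.55 and 1.43 TPM on day 12, and fell by 1.86 ± 0.59 (adjusted p = 0.0369). Mx1 lay at 7.61, 6.35, 7.16 and 6.45 and at 9.57, 8.5, 7.08 and 5.71 TPM and changed by 0.13 ± 0.54 (adjusted p = 0.971). The groups of Mx1 overlapped, and those of Rsad2 did not. Zbp1, a sensor of Z-form nucleic acid, lay at 152, 134, 133 and 139 and at 58.1, 54.2, 56.6 and 63.4 TPM, a change of -1.25 ± 0.45 (adjusted p = 0.0771). Bst2 (tetherin), which holds budding virus at the cell surface, lay at 199, 163, 155 and 195 and at 85.7, 80.2, 78.9 and 93.8 TPM, a change of -1.06 ± 0.44 (adjusted p = 0.136). Isg20, an RNA exonuclease, lay at 61.5, 46.2, 49.8 and 62.3 and at 25.9, 23.5, 33.5 and 29.2 TPM, a change of -0.95 ± 0.44 (adjusted p = 0.188). In each of these 3 every day 12 library lay below every naive one. Trim30a fell by 1.50, Mx2 by 1.96, Parp14 by 1.43 and Xaf1 by 1.22.

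Of the remaining core members 3 fell. Rtp4 lay at 116, 109.7, 101 and 116 TPM in naive cells and at 14.5, 13.7, 15.2 and 14.2 TPM on day 12. Slfn5, a Schlafen protein, lay at 24.4, 22, 21.1 and 17.8 and at 1.39, 1.95, 0.97 and 1.79 TPM. Ifi47, a GTPase also induced by interferon-gamma, lay at 369, 345, 328 and 389 and at 130.5, 123, 141 and 103 TPM. Their groups were apart without overlap, and they fell by 2.86 ± 0.82 (adjusted p = 0.0202), 3.15 ± 0.55 (adjusted p = 0.00014) and 1.52 ± 0.43 (adjusted p = 0.0164). With a pseudocount of 0.1 the call of Rtp4 ended (adjusted p = 0.143). Ifi27l2a, the member with the highest level, lay at 1552, 1226, 1226 and 1459.5 TPM in naive cells and at 986, 933, 1235 and 1258 TPM on day 12, a change of -0.31 ± 0.70 (adjusted p = 0.894) with overlap.

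The calls of Mx2, Rsad2, Irf9, Parp14 and Xaf1 did not hold when any single library of the 2 groups was left out (highest adjusted p 0.0791 to 0.122), and that of Ifi47 was lost without day 12 replicate 4 (0.0533). Markers of other cells differed between the groups in both directions. The 12 B cell genes summed to 852 to 1007 TPM in naive cells and to 217 to 291 TPM on day 12, and 8 erythroid genes to 338 to 942 TPM and 0.73 to 2.42 TPM. The 7 NK cell genes, some of which activated CD8 T cells also express, summed to 6.47 to 11.1 TPM in naive cells and to 581 to 777 TPM on day 12. The 22 myeloid genes summed to 102 to 123 TPM in naive cells and to 206 to 242 TPM on day 12, where 2 of the 22 were at 0 in all 4 libraries. A list of 10 genes of plasmacytoid dendritic cells, which make type I interferon, summed to 255 to 271 TPM in naive cells and to 54.2 to 56.5 TPM on day 12. Of that, Ccr9, which T cells also express, made up 209 to 221 TPM in naive cells. Siglech, a defining marker, lay at 1.37 to 3.95 TPM in naive cells and at 0.66 to 1.51 TPM on day 12, with overlap. Pacsin1 was lower on day 12 too, at 20.53 to 22.41 TPM against 36.55 to 44.53 TPM in naive cells. Runx2 and Spib went the other way. Runx2 lay at 0.28 to 0.92 TPM in naive cells and at 26.61 to 27.89 TPM on day 12, and Spib at 0.17 to 0.32 and 1.31 to 2.36 TPM. The other genes of the list overlapped between the groups. With the summed myeloid genes as a covariate 23 members were called, 1 higher and 22 lower. The part of the other cell types in the result was not tested.

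**Figure D3:**
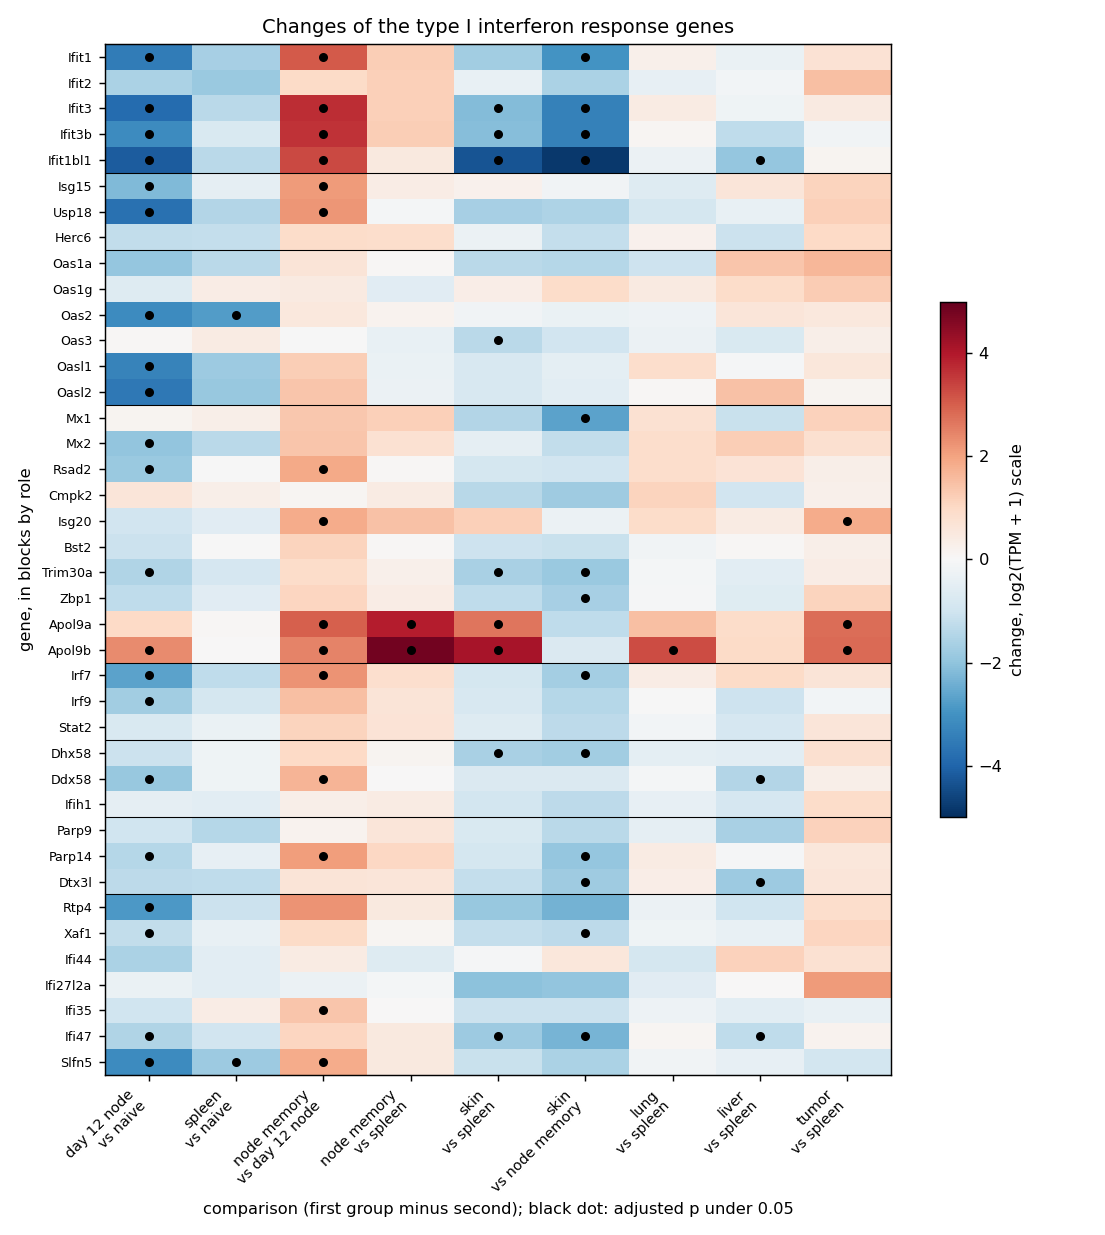
Change of each of the 40 genes (rows, by role) in 9 comparisons (columns), as the difference of mean log2(TPM + 1), first group minus second. Colours run from -5 (blue) to 5 (red), and a black dot marks an adjusted p under 0.05. The day 12 node holds 20 dots on blue, the node memory against day 12 column 15 dots on red, and skin against node memory 13 dots on blue.

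Comparing lymph node memory with the day 12 node asks what became of these levels after the tumor was removed. It shares the day 12 libraries with the comparison above. Of the 40 members 15 were higher in memory cells and 0 were lower in limma, against 4.42% and 2.99% of all genes tested. Before adjustment, at a p under 0.05, the counts were 26 and 0, against 20.6% of all genes in both directions together. The median change was 1.29 over the members and 0.26 over all genes. Quantile normalization brought the median over all genes to 0.01 and that over the members to 1.02. It left 37.5% of all called genes higher, against 59.7% as deposited, and 16 members higher and 0 lower. With weights per group 31 members passed, all higher. Myeloid genes summed to 421 to 1010 TPM in memory cells, against 206 to 242 TPM on day 12, and B cell genes to 470 to 5309 TPM, against 217 to 291 TPM. With the myeloid genes as a covariate 12 members were called, all higher, and the calls of Usp18, Rsad2 and Slfn5 ended (adjusted p = 0.0786, 0.216 and 0.158). The part of B cells was not tested.

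The IFIT genes carried the largest rises, with 4 of 5 called. Ifit3 lay at 142, 167, 62.9 and 138 TPM in memory cells and rose by 3.70 ± 0.50 (adjusted p = 1.87e-05). Ifit1bl1 lay at 96.3, 78.1, 73.7 and 71.5 TPM and Ifit1 at 65, 68.4, 34.1 and 71.1 TPM. Each was apart from day 12 without overlap, and they rose by 3.32 ± 0.50 (adjusted p = 8.03e-05) and 3.05 ± 0.62 (adjusted p = 0.00161). Ifit3b lay at 28.4, 32.7, 18.1 and 40.3 TPM, against 1.74, 1.18, 1.69 and 1.25 TPM on day 12, and rose by 3.60 ± 0.57 (adjusted p = 0.00012).

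Memory libraries were also above every day 12 library for the Isg15 pair and the transcription factors. Isg15 lay at 64.6, 114, 47.1 and 106 TPM and rose by 2.14 ± 0.50 (adjusted p = 0.00599). Usp18 lay at 27.5, 39.1, 13.1 and 44.5 TPM and rose by 2.20 ± 0.56 (adjusted p = 0.0131), a call lost without memory replicate 2 (adjusted p = 0.0551). Irf7 lay at 211, 223, 117 and 136 TPM and rose by 2.24 ± 0.51 (adjusted p = 0.00476). Irf9 lay at 127, 115, 88.2 and 76 TPM and Stat2 at 31.4, 20.6, 12.9 and 17.7 TPM, and neither passed the test (adjusted p = 0.0738 and 0.102). Memory replicate 3 was the lowest of its group for Isg15, Usp18, Irf7 and Stat2.

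Of the 6 OAS genes 0 were called in either direction by limma, and 0 had an unadjusted p under 0.05, where 20.6% of all genes did. With only these 2 groups in the fit Oas1a and Oasl2 were higher (adjusted p = 0.0111 and 0.0247), and with weights per group Oasl1 and Oasl2 were (0.0131 and 0.00231). Oas2 lay at 0.61, 0.86, 0.22 and 2.79 TPM and Oasl2 at 4.75, 6.55, 3.02 and 14.6 TPM in memory cells, with changes of 0.51 ± 0.47 (adjusted p = 0.628) and 1.39 ± 0.73 (adjusted p = 0.284). In naive cells the same genes lay at 10.1 to 13 and 29.7 to 33.4 TPM. Memory replicate 4 was the highest of its group for both.

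Among effectors, Isg20 lay at 110.2, 124, 84.1 and 102 TPM in memory cells and rose by 1.87 ± 0.44 (adjusted p = 0.00679), to a level above every naive library. Rsad2 lay at 7.28, 8.59, 3.31 and 12.3 TPM and rose by 1.89 ± 0.59 (adjusted p = 0.0465). Slfn5 lay at 7.66, 7.73, 3.97 and 16.1 TPM and rose by 1.84 ± 0.55 (adjusted p = 0.0381). The rises of Rsad2 and Slfn5 were lost when any of 7 of the 8 libraries was left out (adjusted p up to 0.133 and 0.132, without memory replicate 4). Parp14 rose by 2.08, Ddx58 by 1.70 and Ifi35 by 1.39, the last of which was lost without memory replicate 2 (adjusted p = 0.0531).

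Several core members were above day 12 without passing the test, and how many of all genes were so was not counted. Mx1 lay at 20.4, 26.6, 16.3 and 21.5 TPM, Zbp1 at 129, 140.1, 107 and 116 TPM and Bst2 at 169, 215, 176 and 171 TPM, each above every day 12 library, with adjusted p of 0.138, 0.167 and 0.139. Rtp4 lay at 63.6, 91.8, 64.6 and 69.9 TPM, Dhx58 at 25.2, 23, 15.6 and 22 TPM and Ifi47 at 290.4, 271, 239.7 and 242 TPM, with adjusted p of 0.0978, 0.217 and 0.133. Ifi27l2a lay at 627, 1358, 935 and 758 TPM and overlapped day 12, with a change of -0.31 ± 0.70 (adjusted p = 0.886).

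Spleen cells were compared with naive cells, which came from the same organ, and with lymph node memory cells. Against naive cells 2 of 40 members were lower and 0 were higher in limma, with 2.46% and 3.62% of all genes called lower and higher. Before adjustment, at a p under 0.05, 15 members were lower and 0 higher, against 18.7% of all genes in both directions together. The median change was -0.68 over the members and -0.05 over all genes. After quantile normalization 48.2% of all called genes were higher, against 59.5% as deposited, and 6 members were lower. Without spleen replicate 4 the count was 3 lower. Without all 6 low T cell identity libraries, 5 of which belong to groups outside this comparison but share its spread, it was 16 lower.

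Oas2 lay at 0.49, 0, 0.36 and 3.41 TPM in spleen, under every naive library, and it fell by 2.79 ± 0.47 (adjusted p = 0.000216). Its naive level of 10.1 to 13 TPM stood above each of the other 28 libraries, none of which exceeded 4.56 TPM. Slfn5 lay at 5.69, 1.95, 4.33 and 14.6 TPM and fell by 1.80 ± 0.55 (adjusted p = 0.048), a call that ended when any of 7 of the 8 libraries was left out (adjusted p up to 0.198). Ifit3 lay at 32.5, 74.5, 42.7 and 67.3 TPM, below every naive library, with a change of -1.34 ± 0.50 (adjusted p = 0.123). Ifit1 lay at 6.26, 65.3, 26.4 and 26.9 TPM, Usp18 at 7.23, 43.5, 90.5 and 27.7 TPM and Irf7 at 39.8, 148, 105 and 121 TPM. Spleen replicate 1 was the lowest of its group for the last 4 genes, and Usp18 overlapped the naive level in replicate 3.

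Among the other core members in spleen, Rtp4 lay at 30.4, 92.1, 41.3 and 60.5 TPM, Zbp1 at 70.6, 126, 107 and 79.8 TPM, Irf9 at 26.4, 78.2, 84 and 92 TPM and Oasl2 at 8.54, 0.50, 16.7 and 22.1 TPM, each below every naive library. Stat2 lay at 9.19, 9.15, 8.94 and 26.3 TPM, Bst2 at 166, 259, 159 and 141 TPM, Dhx58 at 9.88, 26.7, 22.2 and 21.6 TPM and Rsad2 at 2.19, 16.6, 6.07 and 8.6 TPM, and these overlapped the naive range. None of these 8 was called against naive cells.

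Lymph node memory cells and spleen cells differed in 2 members, Apol9a and Apol9b, which were higher in the node, and in 0 that were lower (limma). Of all genes tested 0.36% were higher and 0.122% lower. Before adjustment, at a p under 0.05, the member counts were 7 and 0, against 9.71% of all genes in both directions together. The median change was 0.44 over the members and 0.17 over all genes. After quantile normalization the median over all genes was 0.01, and 63% of all called genes were higher, against 74.7% as deposited. Isg20 and Mx1 were apart without overlap but were not called, with changes of 1.47 ± 0.44 (adjusted p = 0.146) and 1.19 ± 0.54 (adjusted p = 0.476), from 14.5, 76.1, 46.8 and 34.9 TPM and 7.39, 14.4, 6.12 and 8.22 TPM in spleen.

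Apol9a and Apol9b, apolipoprotein L genes induced by interferon, had a pattern of their own. Apol9b lay at 0.21, 0, 0 and 0.10 TPM in naive cells and 0, 0, 0.37 and 0 TPM in spleen, where 3 of 4 libraries list it at 0. It lay at 3.82, 5.03, 4.73 and 4.82 TPM on day 12, 44, 33.5, 27.5 and 19.2 TPM in lymph node memory cells and 19.4, 26.5, 30.9 and 5.72 TPM in skin. These 3 groups were above every naive and spleen library. Levels in lung were 8.23, 6.56, 14.9 and 9.66 TPM and in tumor 4.04, 11.6, 7.16 and 5.95 TPM, and those in liver, 1.14, 0, 0.18 and 6.32 TPM, reached down to 0.

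Apol9b thus rose in the comparison where 20 members fell. It was higher on day 12 than in naive cells by 2.38 ± 0.48 (adjusted p = 0.000786) and higher again in memory cells than on day 12 by 2.46 ± 0.48 (adjusted p = 0.00117). Against spleen it was higher in lymph node memory cells by 4.83 ± 0.48 (adjusted p = 1.08e-06), in skin by 4.11 ± 0.48 (adjusted p = 7.71e-07), in lung by 3.27 ± 0.48 (adjusted p = 0.000872) and in tumor by 2.84 ± 0.48 (adjusted p = 0.000231). These 4 comparisons share the spleen libraries, whose values near 0 make the size of the change depend on the 1 TPM added before taking logs. The rise from day 12 to memory depends on it too, with an adjusted p of 0.0584 when 0.1 TPM was added. In lung the adjusted p was 0.403 when only the 2 groups were fitted.

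Apol9a lay at 0, 0.16, 0 and 0.12 TPM in naive cells, 0, 0, 0 and 0.46 TPM in spleen and 1.34, 1.12, 1.27 and 0.83 TPM on day 12. It lay at 20.1, 18.1, 17.9 and 9.69 TPM in lymph node memory cells, 3.41, 11.3, 5.37 and 5.96 TPM in skin and 4.45, 8.62, 6.74 and 7.26 TPM in tumor. It was higher in memory cells than on day 12 by 2.99 ± 0.50 (adjusted p = 0.000211) and than in spleen by 3.94 ± 0.50 (adjusted p = 6.79e-05). Against spleen it was higher in skin by 2.67 ± 0.50 (adjusted p = 0.000614) and in tumor by 2.79 ± 0.50 (adjusted p = 0.000449), and in lung, at 2.7, 0, 0.88 and 12.8 TPM, the change was 1.51 ± 0.50 (adjusted p = 0.356). The transcripts share sequence, so the pair may hold reads of either gene.

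**Figure D4:**
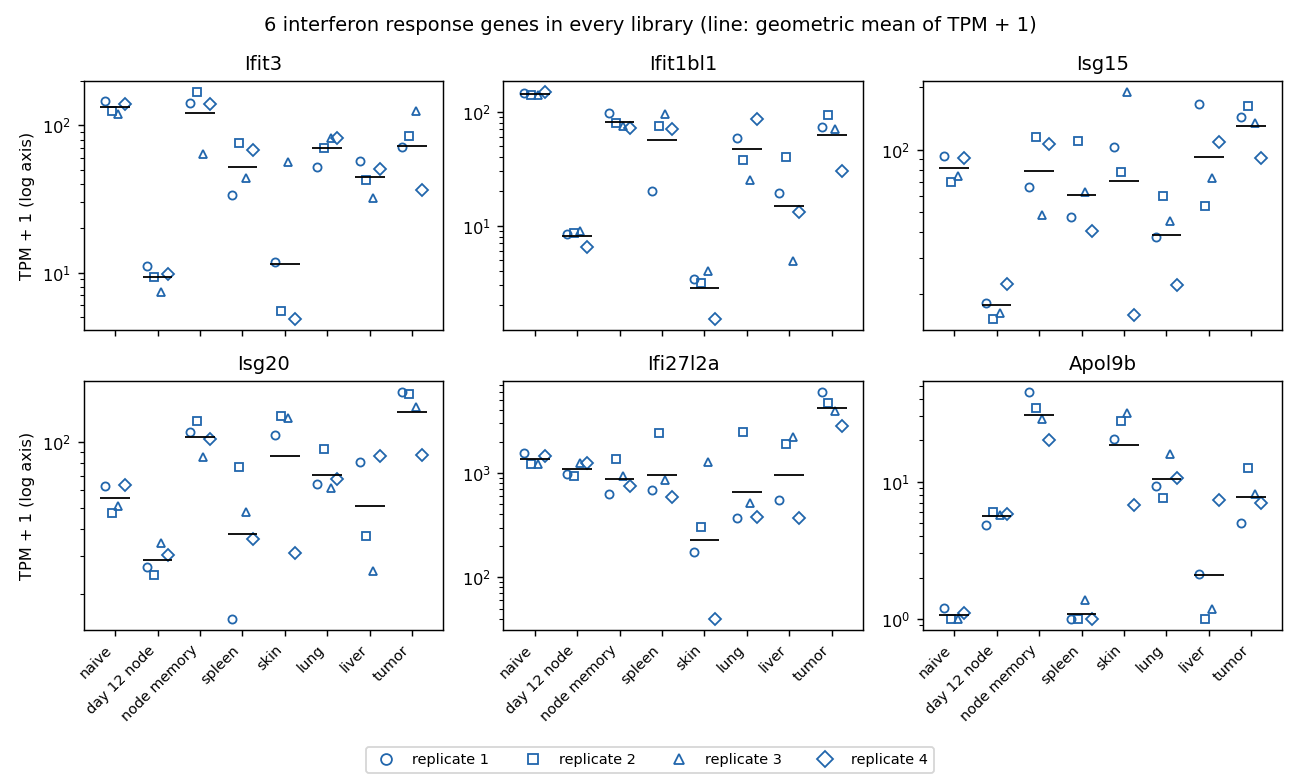
TPM + 1 on a log axis for 6 of the genes in each of the 32 libraries, by group. Symbols are replicates and the line is the geometric mean of 4 libraries. Ifit3 and Ifit1bl1 are low on day 12 and in skin, Isg15 and Isg20 are low on day 12 but not in 3 of the 4 skin libraries, Ifi27l2a is highest in tumor, and Apol9b is at or near 0 in naive cells and spleen.

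Skin, the tissue of the vitiligo, was compared with spleen and with lymph node memory cells. Against spleen 7 of 40 members were lower and 2, Apol9a and Apol9b, were higher, with 3.34% and 4.33% of all genes called lower and higher. Against lymph node memory cells, taken at the same time after surgery, 13 were lower and 0 higher in limma, with 4.31% and 3.18% of all genes. Before adjustment, at a p under 0.05, that second comparison gave 28 lower and 0 higher, against 21.4% of all genes in both directions together. The medians were -0.98 (members) and -0.12 (all genes) against spleen, and -1.39 and -0.25 against lymph node memory. After quantile normalization the second pair of medians was -1.14 and -0.04. Of all called genes 55.9% were then higher in skin than in lymph node memory, against 42.5% as deposited, while 13 members were lower and 0 higher.

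Among the members lower in skin, the largest differences were those of IFIT genes. Ifit1bl1 lay at 2.42, 2.16, 2.98 and 0.51 TPM in skin, 19.3, 73.8, 94.9 and 70.1 TPM in spleen and 96.3, 78.1, 73.7 and 71.5 TPM in lymph node memory cells. All 4 skin libraries were far below every other library of those groups, and it was lower by 4.32 ± 0.50 (adjusted p = 6.91e-07) and by 4.82 ± 0.50 (adjusted p = 2.1e-07). Skin was also below day 12, the next lowest group, at 5.51 to 7.94 TPM, though that pair was not compared by a test. Ifit3 lay at 10.9, 4.45, 55.4 and 3.82 TPM, and replicate 3 overlapped the spleen range of 32.5 to 74.5 TPM. It was lower than spleen by 2.19 ± 0.50 (adjusted p = 0.00493) and than lymph node memory by 3.39 ± 0.50 (adjusted p = 4.89e-05).

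Ifit3b lay at 2.85, 1.07, 7.2 and 0 TPM in skin and 5.87, 19.7, 12 and 12.3 TPM in spleen and was lower by 2.14 ± 0.57 (adjusted p = 0.0163), a call lost without skin replicate 4 (adjusted p = 0.0891). This call held in 5 of the 8 fits that each left out 1 library. Against lymph node memory Ifit3b was lower by 3.38 ± 0.57 (adjusted p = 0.00027). Ifit1 lay at 10.8, 6.64, 22.6 and 0.37 TPM in skin. It was lower than lymph node memory by 2.99 ± 0.62 (adjusted p = 0.00231) and not called against spleen (adjusted p = 0.0848). Replicate 3 was again the highest skin library and replicate 4 the lowest for Ifit1 and Ifit3b.

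Ifi47 and Trim30a were lower in skin than in both comparison groups. Ifi47 lay at 62.3, 76.6, 74.2 and 19.3 TPM in skin and 77.8, 193, 312 and 252 TPM in spleen, without overlap. It was lower by 1.84 ± 0.43 (adjusted p = 0.00536) against spleen and by 2.32 ± 0.43 (adjusted p = 0.000691) against lymph node memory. Trim30a, a ubiquitin ligase that dampens Toll-like receptor signals, lay at 14.4, 16.3, 22.3 and 3.51 TPM in skin and 25.8, 49.5, 34.2 and 50.6 TPM in spleen, and was lower by 1.61 ± 0.39 (adjusted p = 0.00862) and 1.85 ± 0.39 (adjusted p = 0.00314). Oas3 and Dhx58 were lower than spleen by 1.34 and 1.60, and both calls were lost without skin replicate 4 (adjusted p = 0.108 and 0.18). These calls held in 5 and 3 of the 8 fits that each left out 1 library. Dhx58 lay at 4.95, 7.72, 16.8 and 1.02 TPM in skin and 9.88, 26.7, 22.2 and 21.6 TPM in spleen.

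Against lymph node memory alone, Mx1 was lower by 2.66 ± 0.54 (adjusted p = 0.00212), with 3.76, 2.43, 5.53 and 0.35 TPM in skin. Zbp1 lay at 48.5, 51.4, 105 and 7.56 TPM and Irf7 at 56.7, 83.6, 127 and 10.1 TPM, lower by 1.66 ± 0.45 (adjusted p = 0.0219) and 1.70 ± 0.51 (adjusted p = 0.0357). Parp14, Dtx3l, Dhx58 and Xaf1 were lower by 1.93, 1.78, 1.75 and 1.30. Without skin replicate 4 the calls of Zbp1, Irf7, Dhx58, Dtx3l and Xaf1 were lost, with adjusted p from 0.0849 to 0.226. Leaving out other single libraries also ended them: they held in 5, 3, 4, 6 and 2 of 8 such fits, in that order.

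Not all response genes were low in skin. Isg15 lay at 102, 77.3, 188 and 14.9 TPM in skin and 46, 109, 61.7 and 39.5 TPM in spleen, a change of 0.22 ± 0.50 (adjusted p = 0.885). Isg20 lay at 107, 129.9, 128 and 29.9 TPM, with 3 of 4 skin libraries above every spleen library and a change of 1.20 ± 0.44 (adjusted p = 0.101). Against lymph node memory the 2 genes changed by -0.17 ± 0.50 (adjusted p = 0.886) and -0.28 ± 0.44 (adjusted p = 0.774). Stat2 (10.3, 9.57, 7.88 and 3.51 TPM) and Irf9 (43.9, 54.2, 48.2 and 14.8 TPM) were not called against either group. Yet every skin library lay below every lymph node memory library for both. Their changes against lymph node memory were -1.31 ± 0.42 (adjusted p = 0.0511) and -1.43 ± 0.52 (adjusted p = 0.0891).

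The other core members in skin differed mainly between libraries. Usp18 lay at 9.11, 6.09, 28.8 and 3.52 TPM, Oasl2 at 1.67, 3.66, 29.2 and 0.67 TPM and Rsad2 at 2.32, 2.28, 14.3 and 0.94 TPM. Rtp4 lay at 14.9, 13.2, 34.7 and 3.74 TPM, Bst2 at 93.2, 102, 268 and 19.4 TPM and Ifi27l2a at 174, 303, 1267 and 38.8 TPM. Replicate 3 was the highest and replicate 4 the lowest of the 4 for each of these genes. Slfn5 (2.29, 1.92, 4.44 and 0.46 TPM) and Oas2 (0.19, 0.12, 2.25 and 0.27 TPM) were low in skin, and none of the 8 genes in this paragraph was called against spleen (adjusted p from 0.0664 to 0.909).

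The counts in skin rest on its libraries and on the pooled spread. With only the 2 groups in the fit, 3 members were called against spleen, Ifit1bl1, Apol9a and Apol9b, and the other 6 were lost (adjusted p from 0.185 to 0.32). Against lymph node memory 8 were called in that fit, and Ifit1 and Trim30a were among the calls lost (adjusted p = 0.0599 and 0.0601). Without replicate 3, 16 members were called against spleen and 20 against lymph node memory. Without replicate 4 the counts were 7 and 8, and without lymph node memory replicate 1 the second count was 8. With the summed myeloid genes as a covariate the counts were 9 and 16. The part of myeloid and keratinocyte RNA in the single values was not tested.

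Tumor cells were at the high end of the response. Against spleen 3 of 40 members were higher and 0 lower in limma, with 3.42% and 2.82% of all genes called higher and lower. At an unadjusted p under 0.05 the counts were 10 and 0, against 18.1% of all genes in both directions together. The median change was 0.68 over the members and -0.03 over all genes. The 3 were Apol9a, Apol9b and Isg20. Myeloid genes summed to 672 to 906 TPM in tumor and to 1023 to 9937 TPM in spleen. With the summed myeloid genes as a covariate 6 members were higher and 0 lower. The part of myeloid RNA in the single values was not tested. Leaving out tumor replicate 4 or spleen replicate 4 alone gave 3 higher each. Without all 6 low T cell identity libraries, 4 of them from liver and skin, which share the pooled spread, 16 members were higher.

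Isg20 lay at 168, 165, 144 and 86 TPM in tumor and 14.5, 76.1, 46.8 and 34.9 TPM in spleen, without overlap, and was higher by 1.86 ± 0.44 (adjusted p = 0.00766). When only the 2 groups were fitted its adjusted p was 0.0513. Ifi27l2a lay at 5974, 4686, 3914 and 2836 TPM in tumor, above each of the other 28 libraries, and at 681, 2447, 853 and 582 TPM in spleen. Its change of 2.14 ± 0.70 (adjusted p = 0.0634) was not called, and with only the 2 groups in the fit it passed (adjusted p = 0.0403). Isg15 lay at 142, 162, 133 and 90.3 TPM and Zbp1 at 251, 259, 213 and 125 TPM, with 3 of 4 tumor libraries above every spleen library for each and changes of 1.11 ± 0.50 (adjusted p = 0.222) and 1.12 ± 0.45 (adjusted p = 0.163).

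Other core members in tumor repeated one feature, a low replicate 4. Mx1 lay at 24.2, 24.3, 25.7 and 11.3 TPM, Usp18 at 81.6, 88.6, 77.9 and 42.5 TPM and Rtp4 at 126, 118, 107 and 53.4 TPM. Irf7 lay at 164, 189, 167 and 83.9 TPM, Irf9 at 71.5, 69.9, 64.9 and 34.5 TPM, Stat2 at 19.7, 22.7, 21.5 and 12.1 TPM and Dhx58 at 36.4, 41.8, 40.5 and 21.1 TPM. Ifi47 lay at 276, 259.8, 223 and 127 TPM, Bst2 at 286, 238, 208 and 149.8 TPM, Ifit1 at 40.9, 55, 54.9 and 20.7 TPM and Ifit3 at 69.9, 84.1, 124 and 35.4 TPM. Replicate 4 was the lowest of the 4 for each of these 11 genes, and its T cell identity sum was 13367 TPM against 24799 to 34024 TPM in the other tumor libraries. Rsad2 (8.9, 12.1, 10.4 and 5.03 TPM), Oasl2 (5.62, 12.2, 9.04 and 8.97 TPM) and Slfn5 (2.23, 2.76, 3.54 and 1.3 TPM) overlapped spleen.

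Few members differed between lung and spleen. Of 40 members 1, Apol9b, was higher and 0 were lower in limma, with 0.0507% and 0.0608% of all genes called. At an unadjusted p under 0.05 the counts were 3 and 0, a share near the 7.38% of all genes in both directions together. The median change was -0.08 over the members and 0.04 over all genes. Ifit3 lay at 50.9, 68.9, 81.1 and 80.9 TPM, Ifit1 at 27.8, 27.8, 37 and 22.9 TPM and Irf7 at 123, 118, 118 and 126 TPM in lung. Mx1 lay at 18.6, 15.8, 12.6 and 15.1 TPM, Isg15 at 36.7, 58.4, 44.4 and 21.3 TPM and Isg20 at 63.1, 92.1, 60.3 and 66.8 TPM. The 4 lung libraries were tight for Irf7 and apart for Ifi27l2a (372, 2469, 517 and 377 TPM). A p that misses the threshold does not show that lung and spleen are alike: the SE of a member in this comparison ranged from 0.35 to 0.84.

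The other core members in lung had group means between those of day 12 and naive cells, except Rsad2, whose mean was above both. Usp18 lay at 14.5, 9.13, 18.9 and 26.4 TPM, Rtp4 at 33.6, 69.9, 32.2 and 41.9 TPM and Zbp1 at 127, 69.8, 80.2 and 87.1 TPM. Irf9 lay at 81.8, 49.1, 33.1 and 110.1 TPM, Stat2 at 20.3, 5.36, 6.4 and 18.5 TPM, Dhx58 at 18.2, 14.3, 10.2 and 11.7 TPM and Ifi47 at 225, 162, 121 and 363 TPM. Bst2 lay at 192, 211, 93.7 and 161 TPM, Rsad2 at 6.02, 17, 19.6 and 15.8 TPM, Oasl2 at 8.6, 8.55, 4.58 and 12.6 TPM and Slfn5 at 7.64, 8.44, 0.45 and 7.44 TPM. Lung replicate 3 was the lowest of its group for Irf9, Dhx58, Ifi47, Bst2, Oasl2 and Slfn5, and it held 47406 TPM of B cell genes against 145 to 10427 TPM in the other lung libraries. The part of B cells in these values was not tested.

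In liver 4 of 40 members were lower than in spleen and 0 were higher in limma, with 11.1% and 2.45% of all genes called lower and higher. The members' share of 10% was close to that of all genes. At an unadjusted p under 0.05 the counts were 6 and 0, against 33.2% of all genes in both directions together. The median change was -0.38 over the members and -0.53 over all genes. After quantile normalization the medians were 0.02 (members) and -0.08 (all genes), 55.3% of all called genes were higher, against 18.1% as deposited, and 1 member was higher and 3 lower. The 4 were Ifit1bl1 (-1.92), Dtx3l (-1.83), Ddx58 (-1.45) and Ifi47 (-1.27). With only the 2 groups in the fit, with weights per group, without low T cell identity libraries or with the myeloid covariate 0 of 40 were called.

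Liver libraries had the widest spread of any group over all genes (residual SD 1.33 on the log2 scale, against 0.30 to 0.96 in the others), and liver replicate 2 listed several members at 0. Ifit1bl1 lay at 18.4, 38.7, 3.91 and 12.3 TPM and was lower than spleen by 1.92 ± 0.50 (adjusted p = 0.0135), a call lost without liver replicate 3 (adjusted p = 0.0505). Ifi47 lay at 124, 90.6, 35.8 and 85 TPM, with its call lost when any of 5 of the 8 libraries was left out. Dtx3l lay at 8.75, 0, 3.72 and 5.92 TPM, with its call lost without liver replicate 2 (adjusted p = 0.0585). Ddx58 lay at 22.5, 11.2, 34.3 and 18.9 TPM, against 110.3, 49.2, 40.1 and 48.2 TPM in spleen.

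The core members not called in liver varied as widely. Ifit3 lay at 56.5, 41.4, 31 and 49.8 TPM, Ifit1 at 39, 12, 7.68 and 30.4 TPM and Irf7 at 245, 366, 85.4 and 149.9 TPM. Isg15 lay at 165, 52.6, 71.8 and 107 TPM, Usp18 at 21.1, 54.1, 13.3 and 19 TPM, Rtp4 at 64.7, 0, 97.5 and 76.1 TPM and Mx1 at 7.79, 0, 15.1 and 1.83 TPM. Oasl2 lay at 6.52, 47.5, 18.2 and 48.9 TPM, Rsad2 at 13.1, 3.61, 8.12 and 43.6 TPM, Isg20 at 80.1, 36.2, 24.5 and 85.4 TPM and Zbp1 at 118, 45, 65.6 and 41 TPM. In replicate 2 Irf7 was the highest of its group while Rtp4 and Mx1 were listed at 0. Irf9 lay at 90.0, 10.7, 14.1 and 62.5 TPM, Stat2 at 8.21, 4.08, 3.83 and 11.1 TPM, Dhx58 at 9.55, 35.4, 6.38 and 11.7 TPM, Bst2 at 187, 193, 277 and 118 TPM, Slfn5 at 1.29, 8.34, 2.35 and 6.71 TPM and Ifi27l2a at 549, 1879, 2233 and 368 TPM. Myeloid genes summed to 2699 TPM in replicate 1 and 17094 to 19530 TPM in the other 3, and the part of these cells in the single values was not tested.

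The genes upstream of the members were counted from lists of their own. Of 14 genes of interferon receptor signalling, 4 fell and 1 rose on day 12 against naive cells (median -0.36), where 5.14% and 5.95% of all genes did. Socs3, a suppressor of cytokine signals, fell by 4.70 ± 0.72 (adjusted p = 2.19e-05), Socs1, a suppressor of the receptor's kinases, by 2.23 ± 0.53 (adjusted p = 0.00413), and Irf8 rose by 2.38 ± 0.74 (adjusted p = 0.0321). In lymph node memory cells against day 12, 4 of the 14 rose and 0 fell (median 0.85), against 4.42% and 2.99% of all genes, with Socs1 higher by 3.10 ± 0.53 (adjusted p = 0.000258) and Irf1 by 1.31 ± 0.41 (adjusted p = 0.046). Both receptor chains were above 0 in all libraries but 1 of liver, where Ifnar1 was listed at 0. Ifnar1 lay at 52 to 61.3 TPM in naive cells and 22.5 to 31.8 TPM on day 12.

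In skin 1 gene of this list was higher than in spleen and 1 lower, a share near that of all genes (4.33% and 3.34%). Socs1 was higher than in spleen by 1.89 ± 0.53 (adjusted p = 0.0225) and Irf2 lower by 1.48 ± 0.38 (adjusted p = 0.0117). Against lymph node memory 1 of 14 was higher and 3 lower, against 3.18% and 4.31% of all genes, with Irf2 lower by 1.50 ± 0.38 (adjusted p = 0.0116). Of 15 genes of nucleic acid sensing 1 rose and 1 fell on day 12, which is near the share of all genes (5.95% and 5.14%). They were Irf5 by 2.11 ± 0.56 (adjusted p = 0.0112) upward and Tlr7, an endosomal RNA sensor, by 2.49 ± 0.72 (adjusted p = 0.0208) downward.

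The interferons themselves were hardly seen. All 18 type I interferon genes in the table missed the filter. Their highest level in any library was 2.74 TPM for Ifnz, and Ifnb1 reached at most 0.26 TPM and lay above 0 in 12 of 32 libraries. These libraries therefore give no change for them, and RNA of cells outside the sorted T cells was not measured.

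A list of 56 other interferon-induced genes was counted in the same way. On day 12 against naive cells 13 fell and 3 rose, against 5.14% and 5.95% of all genes, with Trim30c lower by 3.25 ± 0.63 (adjusted p = 0.000518), Ddx60 by 3.01 ± 0.63 (adjusted p = 0.00124) and the chemokine gene Cxcl10 higher by 3.23 ± 0.55 (adjusted p = 9.14e-05). In lymph node memory against day 12, 9 rose and 0 fell, against 4.42% and 2.99% of all genes, led by Slfn8 with 2.41 ± 0.40 (adjusted p = 0.000178). The list medians were -0.78 and 0.84 in these comparisons. Skin had 12 lower and 1 higher against spleen and 24 lower and 1 higher against lymph node memory, with medians of -1.05 and -1.32. Of all genes 3.34% and 4.31% were lower in these comparisons. Cxcl10 lay at 30.2 to 103 TPM in skin and was the higher one against spleen, by 3.18 ± 0.55 (adjusted p = 0.000225). Slfn1 was lower than in spleen by 3.03 ± 0.72 (adjusted p = 0.0071), the largest fall of the list. In liver 2 were higher and 17 lower than in spleen (median -0.98), against 2.45% and 11.1% of all genes. In tumor 2 were higher, a share near the 3.42% of all genes, and 0 lower in limma. At an unadjusted p under 0.05, 3 were higher and 4 lower, against 18.1% of all genes in both directions together.

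GTPases that interferon-gamma also induces were counted apart, 19 genes with the member Ifi47 among them. On day 12 against naive cells 9 fell and 0 rose in limma, against 5.14% and 5.95% of all genes. At an unadjusted p under 0.05 the counts were 13 and 1, against 22.7% of all genes in both directions together. Tgtp1 fell by 3.59 ± 0.74 (adjusted p = 0.000959), with 226 to 264 TPM in naive cells and 14.5 to 23.3 TPM on day 12, Gbp10 by 3.07 ± 0.76 (adjusted p = 0.00591) and Gbp9 by 2.55 ± 0.59 (adjusted p = 0.00325). In lymph node memory against day 12, 6 rose, against 4.42% of all genes, led by Gbp10 with 2.45 ± 0.76 (adjusted p = 0.0441). The list medians were -1.44 and 1.19. Skin had 3 lower against spleen and 9 lower against lymph node memory, against 3.34% and 4.31% of all genes, and Tgtp1 was the lowest in both, by 2.50 ± 0.74 (adjusted p = 0.0322) and 2.88 ± 0.74 (adjusted p = 0.0144). In tumor 2 were higher than in spleen, against 3.42% of all genes, Gbp10 by 3.51 ± 0.76 (adjusted p = 0.00334) and Gbp6 by 1.96 ± 0.52 (adjusted p = 0.0193).

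Of the 40 members 11 were called in none of the 9 comparisons of 2 groups, and Apol9b was called most often, in 6, followed by Ifit1bl1 in 5. The 11 were Ifit2, Herc6, Oas1a, Oas1g, Cmpk2, Bst2, Stat2, Ifih1, Parp9, Ifi44 and Ifi27l2a. How many of all genes tested were called in none was not counted, so the number of members has no background. Oas1a ranged from 29.5 to 35.9 TPM in naive cells and 7.43 to 8.03 TPM on day 12 to 11.2 to 157 TPM in liver. Cmpk2, a mitochondrial nucleotide kinase encoded beside Rsad2, lay at 10.1 to 11.6 TPM in naive cells, 15.4 to 19.3 TPM on day 12 and 20.6 to 52.9 TPM in lung. Ifih1 (MDA5), the sensor of long double-stranded RNA, reached at most 9.29 TPM in any library, with 0.39 to 2.44 TPM in skin and 4.68 to 9.29 TPM in tumor. Parp9, which pairs with Dtx3l, lay at 56.3 to 66.4 TPM in naive cells and 5.39 to 21.5 TPM in skin.

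Members varied together across libraries to unequal degrees. Over 32 libraries, which share groups and T cell content, the median Pearson r of the 780 pairs of members was 0.44, and 0.32 after the group means were removed. Against the mean log2(TPM + 1) of the other members, Ifit1 had an r of 0.93 (0.83 within groups) and Zbp1 0.90 (0.83). Apol9a (0.10) and Apol9b (-0.06) had the lowest values over all libraries, but 0.17 and 0.52 within groups. Ifi44 had 0.11 over all libraries and -0.16 within groups. Ifi44 and the low end of this list were picked after their values were seen. The likeness is a description of these libraries and carries no test.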

How the data were processed

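Bulk RNA-seq of 32 libraries in 8 groups of 4 was analysed from 1 table of 46517 genes. Bowtie and the mm10 build are named in the submitters' processing notes. Version, annotation and counting are not stated there. The authors deposited natural log values, ln(TPM + 1), as back-transformed sums of 999999 to 1000001 TPM per library show. Values were returned to TPM and taken to log2(TPM + 1). No raw counts were used, so limma 3.58.1 (R 4.3.3, trend) took the place of the count model planned for them. All 8 groups entered 1 model (24 residual degrees of freedom) over 19738 genes with at least 1 TPM in 4 libraries, with Benjamini-Hochberg adjustment over all of them. A check of the fit on simulated data required right signs of the recovered changes and set no limit on false calls. Members, gene lists and tests were chosen with earlier results of these data known. Named genes were 18 core members, up to 6 called members by size per comparison, and up to 3 called genes per pathway list. Alternatives changed the filter, pseudocount, model, scaling and libraries. Removing low T cell identity libraries is defined by a measured marker sum. Promoter sequences are from RefSeq GRCm38.p6.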

Additional observations from a re-analysis of the deposited data

Results flagged for a closer look

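Over the 18 core members and the median of the 40, each in 8 groups, 12 of 152 groups of 4 libraries held a value set apart from the other 3 by more than Dixon's 95% critical value for 4 samples. Chance flags about 1 in 20 groups. Values are log2(TPM + 1) with TPM beside them, and none was followed by a test.

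In 5 cases the value was that of a replicate 4 with low T cell identity and lay below the others. In skin these were Isg20 at 4.95 (29.9 TPM, others 107 to 130 TPM), Irf9 at 3.98 (14.8 TPM, others 43.9 to 54.2 TPM) and Ifi47 at 4.34 (19.3 TPM, others 62.3 to 76.6 TPM). In tumor they were Mx1 at 3.61 (11.3 TPM, others 24.2 to 25.7 TPM) and Irf9 at 5.15 (34.5 TPM, others 64.9 to 71.5 TPM). Spleen replicate 4, also of low T cell identity, was high for Stat2 at 4.77 (26.3 TPM, others 8.94 to 9.19 TPM). Spleen replicate 1 was low for Irf9 at 4.78 (26.4 TPM, others 78.2 to 92 TPM).

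Liver replicate 2 listed Rtp4 at 0, with 64.7 to 97.5 TPM in the others. Lung replicate 3 was low for Slfn5 at 0.54 (0.45 TPM, others 7.44 to 8.44 TPM). In lymph node memory, replicate 3 was low for Ifit1 at 5.13 (34.1 TPM, others 65 to 71.1 TPM) and replicate 2 high for Bst2 at 7.75 (214.5 TPM, others 169 to 176 TPM). On day 12, replicate 1 was high for Ifit1 at 3.02 (7.14 TPM, others 5.61 to 5.82 TPM).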

How the results depend on the processing

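No member called in the main analysis changed sign under any alternative that was run. Of 53 named calls, 45 were kept with no filter, 53 with a filter of 5 TPM, 47 with a pseudocount of 0.1, 38 with only the 2 groups in the fit, 48 with weights per group, 49 after quantile normalization, 51 after rescaling, 48 without low T cell identity libraries and 46 with a myeloid covariate. The cause of the moved counts was not tested.

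Counts of called members that moved by over 1.5 times were as follows. With only the 2 groups in the fit they were 37 on day 12 against naive cells, 5 in spleen against naive cells, 31 in lymph node memory against day 12, 3 in skin, 0 in lung and 0 in liver against spleen, and 8 in skin against lymph node memory. With weights per group they were 37, 11 and 31 for the first 3 of these comparisons, 0 in liver and 5 in tumor against spleen, and 25 in skin against lymph node memory. Without libraries of low T cell identity they were 16 in spleen against naive cells, 27 in lymph node memory against day 12, 8 in lymph node memory, 2 in lung, 0 in liver and 16 in tumor against spleen. With the myeloid covariate they were 5 in spleen against naive cells, 0 in liver and 6 in tumor against spleen. Quantile normalization gave 6 in spleen against naive cells and 7 in tumor against spleen. In spleen against naive cells, no filter, a pseudocount of 0.1, rescaling and the replicate block gave 1 each.

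Leaving out 1 library at a time gave 15 to 16 called members on day 12 against naive cells, 1 to 3 in spleen against naive cells, 11 to 15 in lymph node memory against day 12, and 2 to 2 in lymph node memory against spleen. Against spleen it gave 7 to 16 in skin, 1 to 1 in lung, 2 to 9 in liver and 3 to 4 in tumor. Skin against lymph node memory gave 8 to 20 and the test over any group 33 to 38.

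Replicate numbers pair nothing in the labels, and in no comparison did all 4 pairs correlate above 0.1. With the replicate block the counts were 22 on day 12 against naive cells, 1 in spleen against naive cells, 14 in lymph node memory against day 12, 2 in lymph node memory, 12 in skin, 1 in lung, 3 in liver and 4 in tumor against spleen, 16 in skin against lymph node memory and 37 over any group. Slfn5 in spleen against naive cells (adjusted p = 0.051), Rsad2 in lymph node memory against day 12 (0.0521) and Ifi47 in liver (0.0529) were lost under the block, by limma. TPM keep no read depth, so the precision of low members is known only from the spread between libraries.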
